A study of Mus musculus with 4 samples.

Results

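Genes of the lysosome, taken by symbol as a list of 36 hydrolases, cathepsins, membrane proteins, V-ATPase subunits and transcription factors, were followed in PMN-MDSC. These polymorphonuclear myeloid-derived suppressor cells resemble neutrophils and dampen the responses of T cells. The genes are 36 of the 54532 genes in the deposited tables, and all of them were found there. The cells were isolated from spleen of newborn mice of the strain C57BL/6 and kept for 5 days either with NECA, an adenosine analogue used as an agonist of adenosine receptors, or with DMSO, its solvent. Each group held 2 libraries, numbered 1 and 2. By their labels, both groups share the strain, tissue, age and time in culture, and differ only in the agent. The labels do not give the sex of the mice. Nothing in the sources ties the libraries of a group to separate animals or cultures, so p-values cover only the spread among these libraries. That spread exceeded counting error (chi-square per degree of freedom 6.75 within DMSO and 5.27 within NECA), and its source was not tested.

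Lysosomes are acidic organelles in which proteins, glycans and lipids are broken down. The vacuolar ATPase (V-ATPase) pumps protons into them, soluble hydrolases such as the cathepsins work at the resulting low pH, and heavily glycosylated membrane proteins such as LAMP1 line them. The transcription factors TFEB and TFE3 bind E-box-like DNA elements near the start of many lysosomal genes. In neutrophils, lysosomal enzymes are also stored in azurophil granules, and in macrophages, lysosomes digest engulfed cells.

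The DNA near the gene starts is shown first because the MiT/TFE factors, 2 of which are on the list, recognise a defined core there. RefSeq windows on GRCm38.p6, reaching from 250 bases before to 50 bases after each annotated start, were found for 30 of the 36 genes. The palindrome CACGTG, the core of the E-box, which reads the same on both strands, was present for 11 of the 30 genes (36.7%), against 8.09% of 27025 genes with such windows. Its extended form TCACGTGA, which contains the core, was present for 6 of the 30 (20.0%), against 1.12% of all genes. These are matches of letters and not measured binding. Below, 1 match is printed for each of the 11 genes, 5′ to 3′ on the strand of the gene, with the match in capitals:
Ctsa, chr2:164833751-164833776, plus strand: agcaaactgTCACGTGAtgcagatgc
Ctsd, chr7:142387910-142387935, minus strand: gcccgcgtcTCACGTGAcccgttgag
Gla, chrX:134601184-134601209, minus strand: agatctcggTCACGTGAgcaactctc
Mcoln1, chr8:3500464-3500489, plus strand: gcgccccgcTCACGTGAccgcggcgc
Atp6v0d1, chr8:105566052-105566077, minus strand: ctactgcggTCACGTGAgacgcggtg
Atp6v1a, chr16:44139375-44139400, minus strand: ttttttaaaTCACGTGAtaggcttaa
Lamp1, chr8:13159090-13159115, plus strand: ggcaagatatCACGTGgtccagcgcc
Glb1, chr9:114401020-114401045, plus strand: gcttctgagtCACGTGgcctacagag
Gaa, chr11:119267813-119267838, plus strand: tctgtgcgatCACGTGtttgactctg
Ctsl, chr13:64370741-64370766, minus strand: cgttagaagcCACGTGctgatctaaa
Lgmn, chr12:102439126-102439151, minus strand: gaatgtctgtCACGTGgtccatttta

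Within the printed matches, the CACGTG of Ctsd began 98 bases before the start and that of Atp6v0d1 3 bases before it. Lamp1 held 4 cores within 61 bases before its start. The match in Lgmn lay 49 bases before the second of its annotated starts, and the window of its first start held none. That first window of Lgmn and the window of Ctss are given whole, because these genes had the lowest log2 fold changes of the list, and neither holds a CACGTG:
Lgmn, first start, chr12:102439679-102439978, minus strand: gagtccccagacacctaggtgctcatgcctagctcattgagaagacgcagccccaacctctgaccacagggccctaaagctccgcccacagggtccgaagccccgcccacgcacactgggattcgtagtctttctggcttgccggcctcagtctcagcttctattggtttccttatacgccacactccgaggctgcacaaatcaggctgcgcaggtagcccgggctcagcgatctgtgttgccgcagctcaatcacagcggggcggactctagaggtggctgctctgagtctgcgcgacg
Ctss, chr3:95526536-95526835, plus strand: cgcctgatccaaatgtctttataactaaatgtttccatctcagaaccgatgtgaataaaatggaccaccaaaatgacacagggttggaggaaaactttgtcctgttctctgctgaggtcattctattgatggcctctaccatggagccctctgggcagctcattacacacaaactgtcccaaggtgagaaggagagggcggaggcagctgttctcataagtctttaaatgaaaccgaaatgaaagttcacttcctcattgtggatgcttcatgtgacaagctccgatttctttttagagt

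Total counts per library ran from 15864120 to 18712625. The listed genes took 0.570% and 0.559% of them with DMSO and 0.541% and 0.517% with NECA. Most neutrophil markers were abundant in every library (summed level of 12 markers 112371 to 125898 CPM, counts scaled to library size), which is the labelled cell type. Of the 12, Elane (1.23 to 4.04 CPM) and Mpo (3.49 to 15.4 CPM) were low. Libraries also held transcripts of other cells, and the sums of the macrophage and B cell markers were lower with NECA. The sum of 6 monocyte markers was not (546 and 571 CPM under DMSO against 604 and 585 CPM under NECA). Most of that sum was Ly6c2 (522 and 549 CPM under DMSO against 575 to 582 CPM under NECA). The log2 fold changes of the other 5 monocyte markers lay below 0, and 0 of the 6 passed. The sum of 14 macrophage markers was 693 and 605 CPM under DMSO against 313 and 252 CPM under NECA. The sum of 7 B cell markers was 126 and 133 CPM under DMSO against 69.5 and 12.7 CPM under NECA, so the 2 NECA libraries stood apart from each other. Xist had 25.6 to 64.1 CPM in the other libraries and 204 CPM in DMSO replicate 1, where Uty, Kdm5d, Ddx3y and Eif2s3y, genes of the Y chromosome, had their lowest levels. Xist itself passed as lower with NECA (log2 fold change -2.11, adjusted p = 0.0217 by edgeR). The labels give no sex, and its part in the results was not tested.

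Levels between genes were compared per length, as deposited FPKM (fragments per length of gene and size of library). The saposin precursor gene Psap was the most abundant gene of the list in every library, at 347 and 336 FPKM under DMSO against 345 and 327 FPKM under NECA. The aspartic protease cathepsin D, Ctsd, came next, at 128 and 133 FPKM under DMSO against 131 and 130 FPKM under NECA. Grn (progranulin), Lamp1 and the mannosidase gene Man2b1 lay between 80.6 and 103 FPKM in all libraries. At the other end, the collagenolytic cathepsin K, Ctsk, and the V-ATPase subunit Atp6v0d2, both known from osteoclasts, had no more than 0.175 and 0.182 FPKM in any library. Of the 6 osteoclast markers, Calcr, Dcstamp and Ocstamp had 0 counts in all libraries and Oscar 0 counts with DMSO and 3 in each NECA library. The other two, Nfatc1 (148 to 164 CPM) and Itgb3 (64.8 to 80.3 CPM), which are not limited to osteoclasts, were detected in every library, and neither passed.

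**Figure D1:**
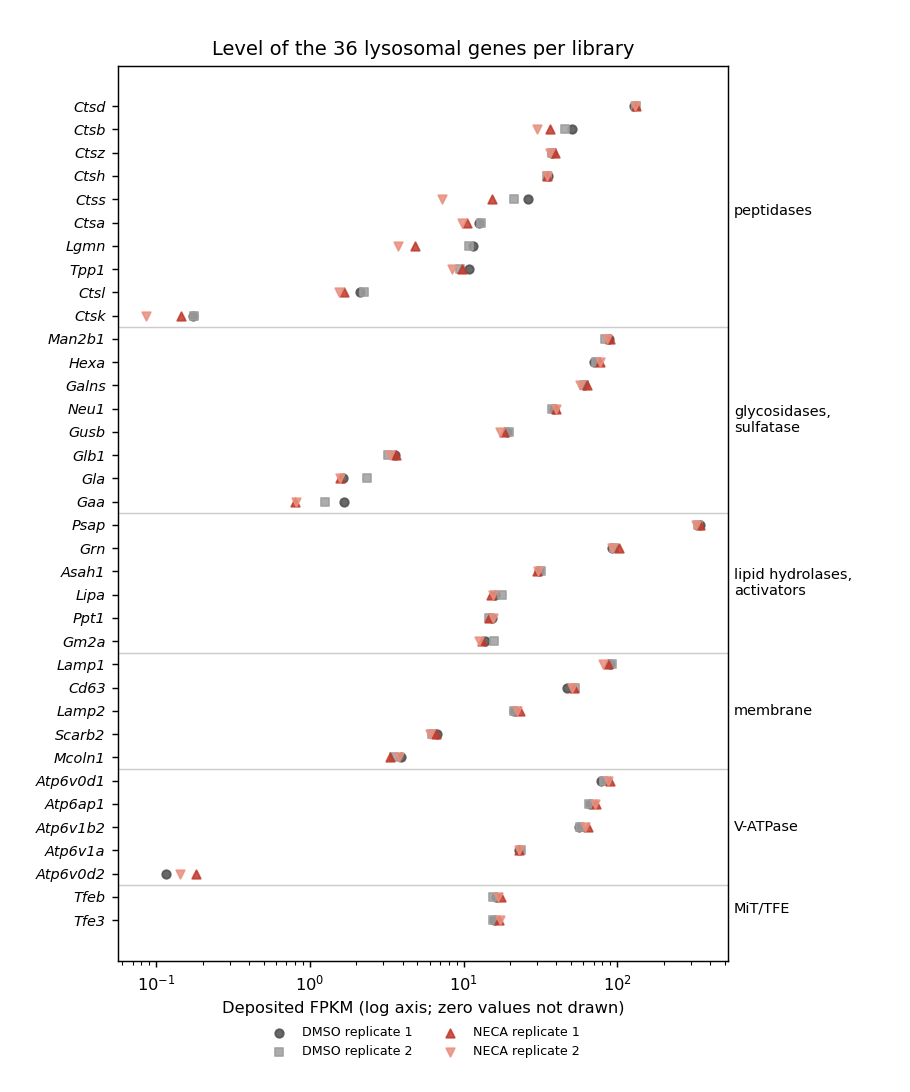
Deposited FPKM of the 36 lysosomal genes on a log axis, 1 point per library, grouped by the role of the product and ordered by the mean of the DMSO libraries. Psap (327 to 347 FPKM) stands at the top of the range, and Ctsk and Atp6v0d2 lie below 0.2 FPKM.

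The contrast of NECA and DMSO addresses the effect of adenosine receptor activation on these cells. For the lysosomal genes it showed few changes, and those that passed the test were falls of proteases. Legumain, Lgmn, an asparaginyl endopeptidase, fell 2.60-fold and cathepsin B, Ctsb, a cysteine protease, fell 1.46-fold. The other tested genes did not pass: the glycosidases, the lipid hydrolases, the membrane proteins, the V-ATPase subunits and the 2 transcription factor genes included none that changed by this test. Ctsk (5 and 5 counts with DMSO, 4 and 2 with NECA) and Atp6v0d2 (6 and 0, then 9 and 6) were too low to test. The count of 0 for Atp6v0d2 in DMSO replicate 2 allows up to 0.159 CPM (3 counts; counting error only).

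By edgeR's quasi-likelihood test, with Benjamini-Hochberg adjustment over all 13083 genes tested and a threshold of 0.05, 0 of 34 tested genes of the list were higher and 2 were lower. Over all genes, 1.33% passed, 0.352% as higher and 0.978% as lower (46 and 128 genes), and the 2 falls are 5.88% of the list. With library size alone as the scale, the split over all genes was 21 higher and 217 lower, and 4 of the list were lower. At an unadjusted p under 0.05 by edgeR, 3 of the list were higher and 8 lower, together 32.4% against 15.7% of all genes. With the adjusted threshold of 0.05, DESeq2 and limma-voom also called 0 of the list higher, and 2 and 3 lower. The median log2 fold change of the 34 was -0.021, beside -0.0065 for all genes tested, and 21 of the 34 values lay below 0 (51.4% of all genes did). Both NECA libraries lay above both DMSO libraries for 8 of the 34 (23.5%) and below them for 14 (41.2%), against 22.4% and 24.3% of all genes. For 28 of the 32 genes that did not pass, the 95% interval of the fold change lay within 1.5-fold either way, and for 23 within 1.25-fold. The 4 with wider intervals were Ctsl, Ctss, Gla and Gaa.

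**Figure D2:**
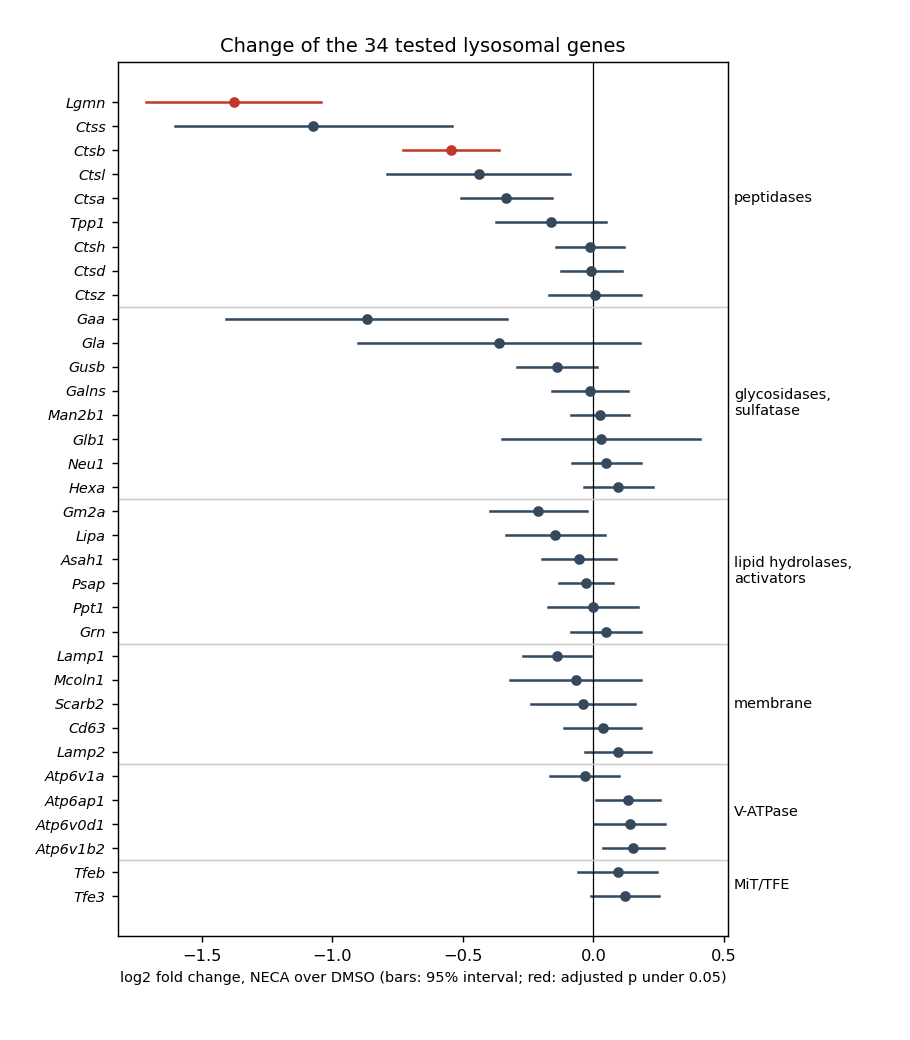
Log2 fold change of NECA over DMSO for the 34 tested lysosomal genes, with 95% intervals, grouped by role. Lgmn (-1.38) and Ctsb (-0.55), in red, passed at adjusted p under 0.05, and most other points lie close to 0.

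The peptidases were the group with the lowest values. Of the 10 genes, 9 were tested, 2 fell, 0 rose and 7 did not pass, and 8 of the 9 log2 fold changes lay below 0 (median -0.33). Their summed level was 1016 and 983 CPM under DMSO against 885 and 813 CPM under NECA, and the groups did not overlap.

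Lgmn, which cleaves after asparagine and also processes cathepsins, had 26.8 and 25.2 CPM under DMSO against 11.3 and 8.66 CPM under NECA. The spread within each group was small beside the gap between them. Its log2 fold change was -1.38 (SE 0.15; 95% interval -1.71 to -1.04; adjusted p = 0.00131 by edgeR), and it passed whichever single library was left out. Lgmn (ENSMUSG00000021190) lies on chromosome 12, 102394084 to 102439813, minus strand (GENCODE M21, GRCm38), and its exons overlap no other annotated gene.

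Ctsb, one of the most abundant cathepsins of phagocytes, had 308 and 278 CPM under DMSO against 220 and 181 CPM under NECA. All NECA values lay below all DMSO values, with a log2 fold change of -0.55 (SE 0.08; adjusted p = 0.0100 by edgeR). Without DMSO replicate 1, the library with the highest value, Ctsb missed the threshold (-0.46, adjusted p = 0.0956). Its annotated locus is chromosome 14, 63122462 to 63145923, plus strand, where 774 exonic bases overlap the antisense gene Fdft1, so part of its count is uncertain.

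Cathepsin S, Ctss, a cysteine protease of antigen-presenting cells that trims the MHC class II invariant chain, had 35.5 and 29.1 CPM under DMSO against 20.6 and 9.76 CPM under NECA. The groups did not overlap, but the NECA values differed from each other more than the DMSO values did. Its log2 fold change of -1.07 (SE 0.24, 95% interval -1.60 to -0.54) missed the threshold (adjusted p = 0.0560 by edgeR). With all libraries kept, it passed with limma-voom, library size alone, no filter on low counts, or a replicate block. Ctss stood at -0.92 without DMSO replicate 1 (adjusted p = 0.221) and -1.21 without DMSO replicate 2 (adjusted p = 0.124), and DESeq2 did not call it either (adjusted p = 0.417). Leaving out NECA replicate 1 gave -1.73 (adjusted p = 5.08e-18) and leaving out NECA replicate 2 gave -0.65 (adjusted p = 0.00441), where the single NECA library left is assumed to vary like the DMSO pair. Cd74, the invariant chain gene itself, had 82.9 and 88.0 CPM under DMSO against 43.8 and 4.07 CPM under NECA, with the same NECA library lower. The part of B cell and dendritic cell transcripts in the value of Ctss was not tested.

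Cathepsin L, Ctsl, another endopeptidase, had 13.7 and 14.6 CPM under DMSO against 10.8 and 10.0 CPM under NECA (-0.44, adjusted p = 0.199 by edgeR). Ctsa, a carboxypeptidase that also protects the sialidase NEU1 and β-galactosidase, had 59.5 and 61.0 against 49.5 and 46.1 CPM (-0.33, adjusted p = 0.0696). For both, NECA lay below DMSO without overlap, and neither passed. Ctsa passed without NECA replicate 1 (adjusted p = 0.0197). Exons of Ctsl and Ctsa overlap antisense genes, by up to 1742 and 495 bases, those of Ctsl also a processed pseudogene on the same strand, and their counts are uncertain.

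The remaining tested peptidases, Ctsd, Ctsh, Ctsz and Tpp1, had intervals that included 0. Ctsd had 303 and 313 CPM under DMSO against 308 and 304 CPM under NECA (95% interval of the log2 fold change -0.12 to 0.11), with counts uncertain beside an overlapping gene model on the same strand. The aminopeptidase cathepsin H, Ctsh, had 159 and 157 against 157 and 157 CPM. Ctsz, a carboxypeptidase, had 54.0 and 54.6 against 56.7 and 52.3 CPM. Tpp1, the tripeptidyl peptidase lost in a neuronal ceroid lipofuscinosis, had 55.8 and 49.4 against 50.5 and 43.4 CPM (-0.16, 95% interval -0.37 to 0.05).

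**Figure D3:**
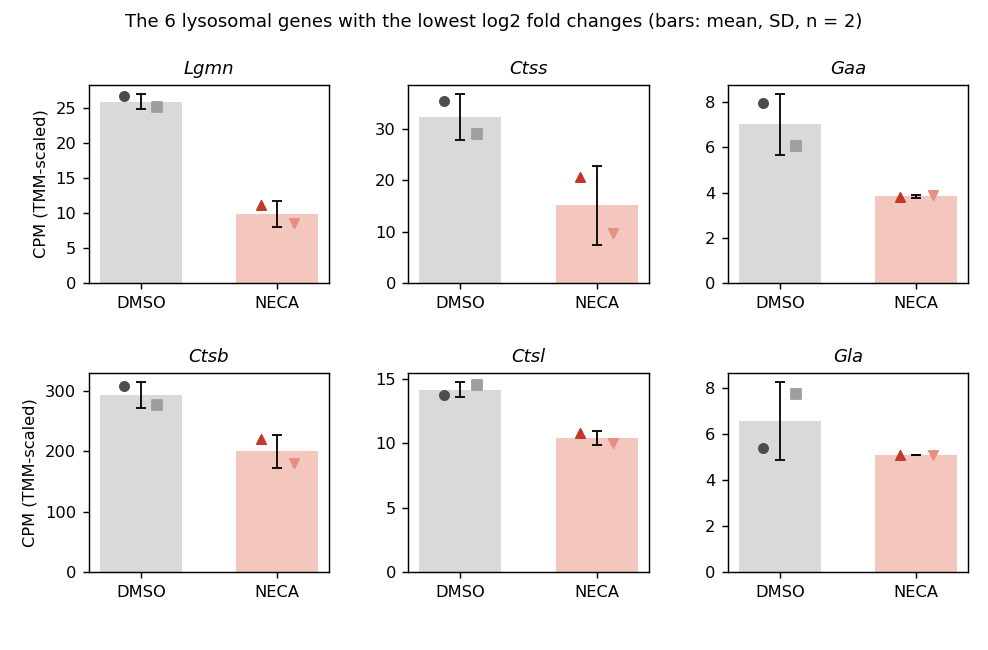
CPM of the 6 lysosomal genes with the lowest log2 fold changes, with bars for the group mean, error bars for the SD (n = 2) and 1 point per library, each axis starting at 0. The NECA points lie below the DMSO points in all 6 panels, and those of Ctss (20.6 and 9.76 CPM) are far apart.

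The makeup of the peptidase transcripts differed between the groups as well. Ctsd took 40.8% and 43.1% of the summed FPKM of the 10 genes with DMSO and 46.2% and 49.5% with NECA, although its own level differed little. Ctsb went from 16.1% and 14.9% to 12.8% and 11.5%. Ctss accounted for 8.27% and 6.93% with DMSO and 5.36% and 2.75% with NECA, and Lgmn for 3.65% and 3.51%, then 1.71% and 1.43%. These shares are a description and were not tested.

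**Figure D4:**
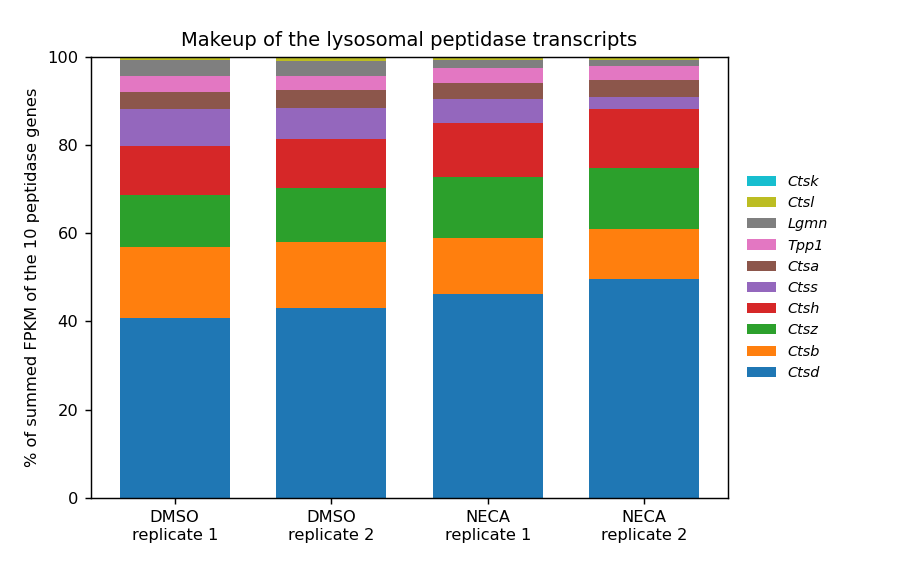
Share of each gene in the summed FPKM of the 10 lysosomal peptidase genes, 1 bar per library, as a percentage. The share of Ctsd is larger with NECA (46.2% and 49.5%) than with DMSO (40.8% and 43.1%), and those of Ctsb, Ctss and Lgmn are smaller.

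Glycosidases and the sulfatase Galns take sugars and sulfate off glycoproteins, glycolipids and glycosaminoglycans. All 8 were tested, 0 passed in either direction, and 4 of the 8 values lay on each side of 0. Man2b1, an α-mannosidase and the most abundant of them, had 710 and 667 CPM under DMSO against 716 and 687 CPM under NECA. Hexa, the α subunit of β-hexosaminidase, had 141 and 146 against 154 and 153 CPM, above DMSO in both NECA libraries, with a log2 fold change of only 0.10. The sialidase gene Neu1 had 145 and 141 against 149 and 148 CPM, and Galns 161 and 162 against 168 and 152 CPM. Gusb, β-glucuronidase, had 87.9 and 89.8 against 82.8 and 78.5 CPM (-0.14, 95% interval -0.29 to 0.01).

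The less abundant glycosidases were measured less precisely. Gaa, the acid α-glucosidase that degrades lysosomal glycogen, had 7.94 and 6.05 CPM under DMSO against 3.79 and 3.88 CPM under NECA. Its groups did not overlap, and its log2 fold change of -0.87 (95% interval -1.41 to -0.33) did not pass (adjusted p = 0.108 by edgeR). Gla, α-galactosidase A, had 5.38 and 7.75 against 5.11 and 5.10 CPM. NECA lay below DMSO without overlap, but DMSO replicate 1 was close to the NECA values. Glb1, β-galactosidase, had 10.8 and 9.72 against 10.9 and 10.0 CPM (95% interval -0.35 to 0.41).

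Of the 6 genes grouped here with the lipid hydrolases and their activators 0 passed. Psap, whose product is cut into the saposins that present sphingolipids to their hydrolases, had 954 and 925 CPM under DMSO against 946 and 896 CPM under NECA (95% interval -0.13 to 0.08). The values of Grn, a growth factor-like lysosomal protein, were 321 and 334 against 357 and 321 CPM. Asah1, acid ceramidase, had 105 and 108 against 102 and 104 CPM. Ppt1, which removes palmitate from proteins, had 56.1 and 54.2 against 53.3 and 57.1 CPM. Lipa, the acid lipase of cholesteryl esters, had 47.4 and 53.2 against 44.9 and 46.1 CPM (-0.15). Gm2a, the activator of ganglioside GM2 breakdown, had 57.4 and 65.1 against 54.2 and 51.6 CPM (-0.21, adjusted p = 0.253 by edgeR). NECA lay below DMSO without overlap for Asah1, Lipa and Gm2a, and the groups of the other 3 overlapped.

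Of the 5 membrane proteins 0 passed. Lamp1 had 241 and 250 CPM under DMSO against 231 and 215 CPM under NECA (-0.14, adjusted p = 0.287 by edgeR). Its relative Lamp2, needed for chaperone-mediated autophagy, lay on the other side, with 204 and 204 against 222 and 213 CPM (0.09, adjusted p = 0.473), and whether the pair differed in response was not tested. The tetraspanin gene Cd63, whose product also marks azurophil granules, had 174 and 195 against 192 and 186 CPM. Scarb2, the receptor that carries glucocerebrosidase to lysosomes, had 42.3 and 39.2 against 41.4 and 37.9 CPM. Mcoln1, a calcium channel of the lysosome, had 29.5 and 26.5 against 25.0 and 28.6 CPM, and the groups overlapped.

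Of the 4 tested V-ATPase genes 3 lay slightly higher with NECA, and 0 passed. Atp6v1b2, a subunit of the catalytic head, had 299 and 303 CPM under DMSO against 343 and 327 CPM under NECA (0.15, 95% interval 0.04 to 0.27, adjusted p = 0.186 by edgeR). Atp6v0d1, which links head and membrane ring, had 140 and 147 against 161 and 155 CPM (0.14, adjusted p = 0.305). Atp6ap1, an accessory subunit, had 201 and 198 against 220 and 217 CPM (0.13, adjusted p = 0.278). In these 3 genes both NECA libraries lay above both DMSO libraries, as they did for 22.4% of all genes tested. Atp6v1a, the catalytic subunit, lay the other way, with 139 and 143 against 137 and 138 CPM (-0.03, 95% interval -0.17 to 0.10). All 4 lay above 50 CPM, where the median log2 fold change of all 3408 genes was 0.062.

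The genes for the factors themselves were likewise slightly higher, beside a median of 0.062 for all genes above 50 CPM. Tfeb had 92.4 and 89.0 CPM under DMSO against 99.5 and 94.0 CPM under NECA (0.09, adjusted p = 0.576 by edgeR), and Tfe3 had 147 and 144 against 158 and 158 CPM (0.12, adjusted p = 0.362). Neither passed. TFEB and TFE3 are regulated largely through phosphorylation and their place in the cell, which RNA counts do not measure. The 11 genes with a CACGTG near a start ran from -1.38 (Lgmn) to 0.14 (Atp6v0d1), with a median of -0.14. The 18 tested genes whose windows lacked it had a median of 0.016. For the 6 genes with TCACGTGA the median was -0.050, against -0.00036 for the 23 tested genes without it. Ctsb, Ctsh, Galns, Asah1 and Atp6v1b2 had no window and are not in these medians, which were not tested.

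Of a wider set of 105 genes of lysosomes and autophagy in 6 lists, 101 were tested. Among these, 0 were higher and 2 lower, beside 0.352% and 0.978% of all genes. Both falls were among 33 tested hydrolases and activators (6.06% of them, median -0.14). Both NECA libraries lay below both DMSO libraries for 20 of the 33 (60.6%) and above for 3 (9.09%), against 24.3% and 22.4% of all genes. At an unadjusted p under 0.05 by edgeR, 2 were higher and 10 lower, together 36.4% against 15.7% of all genes. Pld3, a lysosomal exonuclease, had 55.4 and 43.3 CPM under DMSO against 29.8 and 26.1 CPM under NECA (-0.82, SE 0.12, adjusted p = 0.00814 by edgeR). Ctsc, the dipeptidyl peptidase that activates granule serine proteases, had 32.3 and 26.9 against 17.7 and 12.9 CPM (-0.95, adjusted p = 0.0142). Both calls were lost on leaving out DMSO replicate 1, where Pld3 had adjusted p = 0.0581 and Ctsc adjusted p = 0.115. Prcp, a carboxypeptidase, stood at -0.84 and did not pass (adjusted p = 0.0803).

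Of 17 other membrane and sorting genes (median -0.024) 0 passed. Among those with the lowest p-values were the channel gene Tpcn2 (0.31, adjusted p = 0.0645 by edgeR) and the sorting receptor gene Sort1 (0.16). Tpcn2 had 92.7 and 98.3 CPM under DMSO against 112 and 124 CPM under NECA, and passed with DESeq2 (adjusted p = 0.0343). Among 13 other V-ATPase genes (median 0.0040) 0 passed, and 7 lay above 0. Atp6v1g1 stood at 0.19, with counts uncertain beside pseudogenes, and Atp6v0a1 and Atp6v0e at 0.16 each. The 21 tested genes of lysosomal mTORC1 and MiT/TFE control (median 0.0046) had 0 calls, with Tsc1 at -0.16 and Mlst8 at 0.09. Of the MiT/TFE factors among them, Mitf had 4.81 and 3.13 against 5.60 and 6.07 CPM (0.55, adjusted p = 0.358 by edgeR). Tfec lay the other way, with 1.93 and 1.27 against 1.65 and 0.775 CPM (-0.39). The 14 autophagy genes (median 0.041) had 0 calls, with Wipi1 at 0.21, Atg7 at 0.18 and Gabarap at 0.15. Of the cathepsin inhibitors Cst3, Cstb and Cst7 0 passed, and cystatin C, Cst3, had 189 and 191 against 200 and 180 CPM.

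The list members that fell are also expressed by macrophages, and the macrophage markers moved in the same direction. Of the 14 macrophage markers 12 fell and 2 (Marco and Csf1r) did not pass, with a median log2 fold change of -1.57, and all 14 lay below DMSO in both NECA libraries. C1qc, for example, had 40.0 and 37.1 CPM under DMSO against 12.4 and 9.43 CPM under NECA (-1.81). The value of Lgmn (-1.38) lay near this median, those of Pld3, Ctsc and Ctsb were smaller, and Ctsd, Psap and Man2b1 stood between -0.03 and 0.03. Across libraries, the macrophage sum fell in the order DMSO replicate 1, DMSO replicate 2, NECA replicate 1, NECA replicate 2. Ctsb, Ctss and Lgmn had this same order, 3 of 34 genes (8.82%) against 7.89% of all genes tested. In bulk RNA, fewer macrophages and less RNA of these genes per cell cannot be told apart. The part of macrophage RNA in the falls of Lgmn and Ctsb was not tested.

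Other markers gave the following values. Of 7 B cell markers 1 fell (Blnk), 0 rose, and the median was -1.74. Of 7 erythroid markers 0 passed (median -2.08), with a summed level of 1140 and 462 CPM under DMSO against 323 and 16.8 CPM under NECA. Of the 12 neutrophil markers Mmp9 rose and the others did not pass (median 0.13). The log2 fold changes of 10 lay above 0, and those of Elane (-0.69) and Mpo (-1.19) lay below it. Monocyte markers had 0 calls among 6 (median -0.34), T and NK cell markers 0 among 4 tested (median -1.51), and dendritic cell markers 0 among 3 tested (median -1.64). Stromal markers were nearly all at or near 0, with only Col1a1 (5.47 to 7.85 CPM) tested. Gla, Lamp2, Atp6ap1 and Tfe3 lie on the X chromosome, and 0 of them passed.

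**Figure D5:**
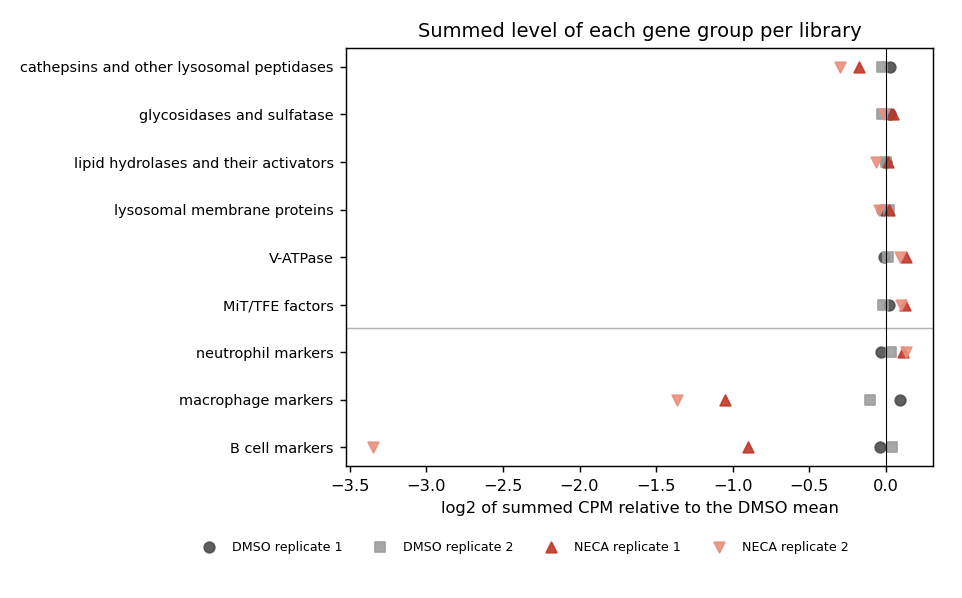
Log2 of the summed CPM of each lysosomal gene group and of 3 marker lists, relative to the mean of the DMSO libraries, 1 point per library. The lysosomal groups lie close to 0, with the peptidases lowest, while the macrophage and B cell markers lie far below 0 with NECA.

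Members were spread over a wide range of levels, and most were abundant. Of the 34 tested, 24 had a mean above 50 CPM, 8 between 10 and 50 CPM, and 2 (Gla and Gaa) between 1 and 10 CPM. Above 50 CPM, 1 of 24 fell (Ctsb), against 0.616% of 3408 genes at that level, and the median was 0.0028 against 0.062. Between 10 and 50 CPM, 1 of 8 fell (Lgmn), against 0.904% of 3761 genes, and the median was -0.15 against -0.018.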

How the data were processed

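RNA of 2 DMSO and 2 NECA libraries was analysed. The authors deposited counts of reads and FPKM values for each gene, per the file headers. The submitters' processing notes name HISAT, StringTie and edgeR, without versions, and mm10 and GRCm38 as builds. Annotation release, strand and the handling of multiply mapped reads: not given in the sources used here. Counts were tested in R 4.3.3 with edgeR 4.0.16 (filterByExpr with a minimum count of 10, TMM scaling, glmQLFit and glmQLFTest, 2 residual degrees of freedom, no replicate block), with Benjamini-Hochberg adjustment across the 13083 genes tested. Variances were moderated across genes, and the 95% intervals used the resulting larger total degrees of freedom. SEs were derived from the log2 fold change and the F statistic. CPM values use the TMM-scaled library sizes. Fold changes were not taken from FPKM, which served to compare genes. Symbols turned into dates (27) were restored by identifier. The test was run on counts simulated from its own fitted model, which cannot show how well 2 libraries stand for a group. Coordinates are from GENCODE M21. Gene overlaps and copies (at least 95% identity over 200 bases) were searched in its transcripts. DESeq2 1.42.0 and limma 3.58.1 were alternatives. All 36 members were named, with, of each other list, the 3 genes of smallest p and every call, and Tfec beside Mitf. A gene that this rule takes is not reported here. The members and lists were chosen with earlier results of these data known. The depth is that of 15864120 to 18712625 counts, and intervals cover the spread between these 4 libraries.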

Additional observations from a re-analysis of the deposited data

How the results depend on the processing

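The falls of Lgmn and Ctsb passed under every alternative run, except that Ctsb missed the threshold without DMSO replicate 1. Genes called over the whole table depended on the processing: 21 higher and 217 lower with library size alone; 875 (285 and 590) with no filter on low counts; 285 (151 higher) with DESeq2; 320 (122 and 198) with limma-voom. Leaving out 1 library gave 53 to 821 calls, 8 to 227 higher and 45 to 594 lower, with the fewest calls without DMSO replicate 1 and the most without NECA replicate 1. Members called lower numbered 4 with library size alone (median log2 fold change -0.093), 5 with no filter, and 1 to 4 when a library was left out, where the median ran from -0.038 to -0.0060. Members called higher numbered 0 in every setting. The libraries share only a number: deviations of DMSO and NECA replicate 1 correlated at 0.026 across genes. With the replicate block, 421 genes were called (123 higher, 298 lower) and 4 members were lower, Ctsa and Ctss besides Lgmn and Ctsb. Ctsa and Ctss also passed with library size alone (adjusted p = 0.0269 and 0.0380) and no filter, Ctss with limma-voom, and Gaa with no filter (adjusted p = 0.0270). A group cut to 1 library is assumed to vary like the other group. The cause of these differences was not tested. Genes under 10 CPM, such as Gaa and Gla, have wide intervals at this depth.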
